A study of Homo sapiens with 6 samples.

Results

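The 38 protein-coding genes that encode the human integrins and laminins were described in U2OS cells after knockdown of SURF2, out of 58051 genes in the count table. They were chosen by symbol among protein-coding genes and comprised 18 integrin α genes, 8 integrin β genes and 12 laminin genes. U2OS is a human osteosarcoma line that grows attached to plastic. The siSURF2 group (3 libraries) received an siRNA against SURF2 and the siSCR group (3 libraries) a scrambled siRNA; each was given in 2 transfections at an interval of 49 h, with RNA taken at 96 h from cells in medium with 10% fetal bovine serum at 37 °C and 5% CO2. Nothing in the labels ties the replicates to separate cultures, so a p-value here covers only library-to-library spread, which may be technical. The series addresses SURF2, MDM2 and nucleolar stress, and the comparison made here is which adhesion receptors and laminin chains differed in mRNA level once SURF2 was lowered.

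Integrins are transmembrane receptors made of 1 α and 1 β chain. The pair decides the ligand: some pairs bind collagen, some bind laminin, some bind proteins with an Arg-Gly-Asp (RGD) motif such as fibronectin and vitronectin, and the β2 and β7 pairs belong mainly to leukocytes. Laminins are trimers of an α, a β and a γ chain, named by their chain numbers (laminin-111 is α1, β1 and γ1), and form the core of basement membranes. Inside the cell the tail of most β chains binds talin and kindlin, which link it to actin. The β4 tail instead joins keratin filaments through plectin in hemidesmosomes.

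Gene counts ranged from 18151554 to 19688089 in siSURF2 libraries and from 17123333 to 19573786 in siSCR libraries, and levels are given as CPM (counts scaled to library size, TMM-normalised), where 1 CPM was at least 16.8 counts in each library. SURF2 itself was at 3.74, 3.56 and 3.20 CPM in siSURF2 replicates 1, 2 and 3, against 36.2, 35.8 and 32.3 CPM in siSCR replicates 1, 2 and 3, which matched the labels. One library stood apart: in siSURF2 replicate 2 mitochondrially encoded genes held 2.73% of counts, against 4.70% and 4.74% in siSURF2 replicates 1 and 3, and 2.91% to 3.5% in siSCR libraries. Its chi-square distances from siSURF2 replicates 1 and 3 were 7.96 and 9.19 (per degree of freedom), against 2.68 between them. The osteoblast factor RUNX2 was present at 20.9 to 24.2 CPM in siSURF2 and 21.4 to 24.5 CPM in siSCR libraries, whereas SP7, TWIST1 and IBSP had at most 1 count in a library. In bulk RNA a change in the share of cells with a transcript and a change per cell cannot be told apart.

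Of the 38 genes, 32 passed the filter on low counts. By edgeR's quasi-likelihood test, adjusted by Benjamini-Hochberg across the 17561 genes in the fit (threshold 0.05), 16 of the 32 rose with siSURF2, 7 fell and 9 did not pass. Across all genes tested, 52.0% were called, 25.8% higher and 26.2% lower, so a call was common in this comparison and the share of 71.9% among the 32 is a description. By the other measure used here, whether the groups overlap, 16 of the 32 lay wholly above siSCR and 7 wholly below, and among all genes tested 57.3% had groups that did not overlap. These were not all the same genes as those called. ITGA3 lay wholly above and ITGAM wholly below without a call, while ITGA10 and ITGAV were called with overlapping groups. The median log2 fold change was 0.22 for the 32 genes and 0.00 for all genes tested. Without siSURF2 replicate 2 the counts were 16 higher and 6 lower, and the count of lower genes was 4 without siSURF2 replicate 3 and 4 without siSCR replicate 3. With library sizes set by the ERCC spike-in totals they were 3 and 0, with LAMA3 and ITGA2 among the 3, a setting in which 803 genes of the whole table were called higher and 826 lower, and in which each of the 23 called genes kept its direction. Of the 6 genes that were not tested, ITGA11, a collagen-binding α chain, had 26 counts summed over siSURF2 and 12 over siSCR libraries. LAMA4, the laminin α4 chain of vessels, had 18 counts with siSURF2 and 6 with siSCR. The leukocyte chains ITGAL and ITGB7 had 2 and 3 counts in siSURF2 libraries and 9 each in siSCR libraries, ITGA8 had 4 with siSURF2 and 1 with siSCR, and LAMB4 had 2 in each group. ITGB7 shares 42.1% of its exon length with ZNF740 on the other strand.

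**Figure D1:**
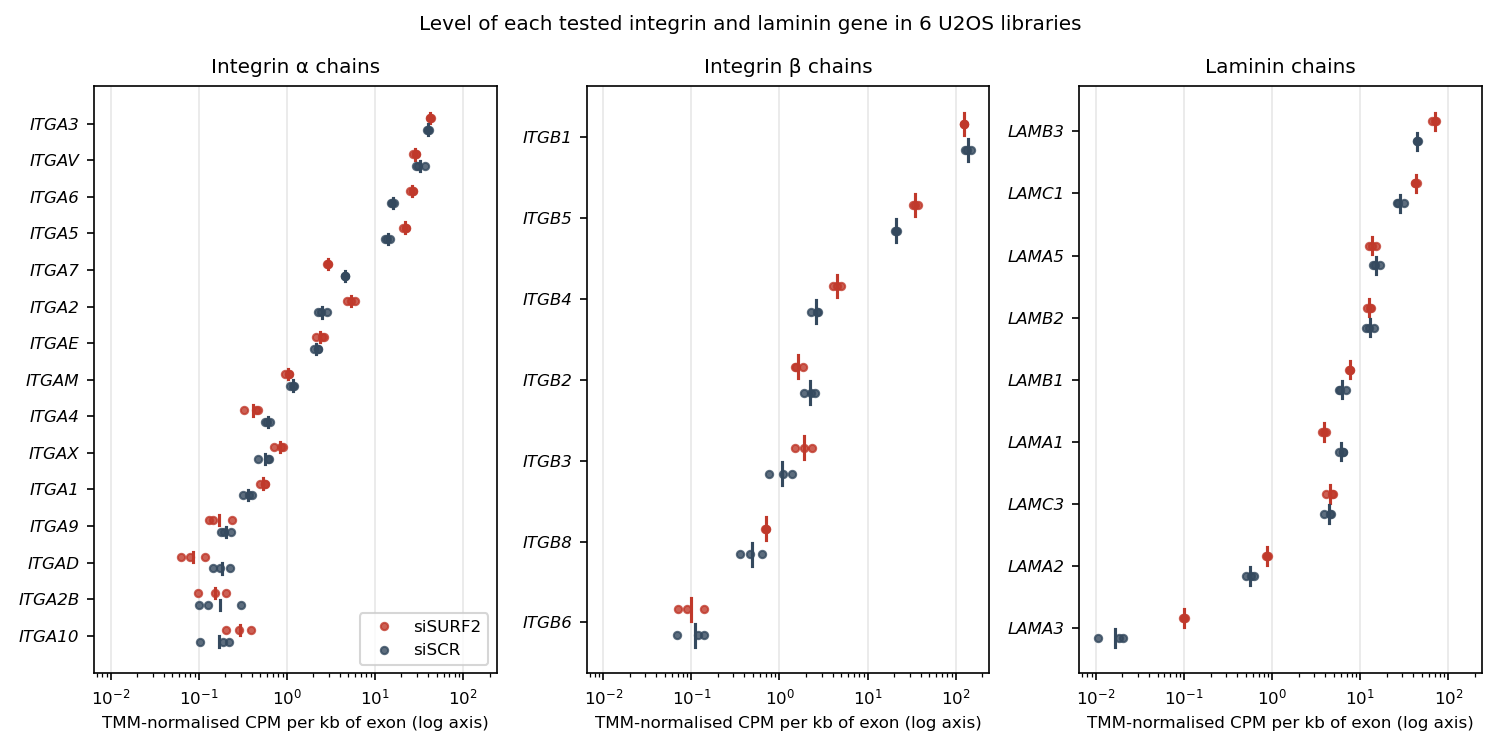
Levels of tested genes in each library, as TMM-normalised CPM per kb of exon on a log axis, siSURF2 above siSCR for each gene; points are libraries and vertical lines are group means. ITGB1 and ITGA3 were the highest chains of their class in both groups, and LAMA3 was the lowest laminin in both, at 0.10 in siSURF2 against 0.016 CPM per kb in siSCR libraries.

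LAMB3 and LAMA3, which encode chains of laminin-332, the laminin of epithelial basement membranes, both rose. LAMB3, the β3 chain (ENSG00000196878, chromosome 1, 209614870 to 209652466, minus strand, GRCh38), was at 334, 338 and 306 CPM in siSURF2 replicates 1, 2 and 3, against 208, 212 and 206 CPM in siSCR replicates 1, 2 and 3. Every siSURF2 library lay above every siSCR library, and the log2 fold change was 0.64 ± 0.05 (SE, n = 3 each, adjusted p = 1.07e-11). LAMA3, the α3 chain (ENSG00000053747, chromosome 18, 23689443 to 23956222, plus strand), gave 26, 29 and 29 counts in siSURF2 libraries and 5, 5 and 3 counts in siSCR libraries. The summed counts of 84 and 13 correspond to a 6.17-fold higher rate with siSURF2 (exact 95% interval 3.42 to 12.1, counting error only), and the fitted log2 fold change was 2.59 ± 0.40 (adjusted p = 2.92e-06). LAMA3 reached the 10 counts of the filter only in siSURF2 libraries, so it entered the test through the group in which it was higher.

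LAMA3 was far scarcer per length than LAMB3. LAMB3 stood at 69.6 ± 3.73 CPM per kb of exon in siSURF2 and 44.5 ± 0.694 CPM per kb in siSCR libraries (SD, n = 3 each). LAMA3 was at 0.0994 ± 0.00236 CPM per kb with siSURF2 and at 0.0163 ± 0.00516 CPM per kb with siSCR.

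The sequences before the annotated starts of these 2 genes shared letters that the other searched members lacked, and are shown for that reason. RefSeq start windows (GRCh38.p14) were on hand for 26 of the 38 genes, and the 250 bases before each start were searched on both strands for TGAGTCA (reverse TGACTCA), the textbook AP-1 motif. The same windows were also searched for the letters of the SP1, TEAD, TATA and CCAAT motifs. Each of these was found in at least 2 of the 26 genes. AP-1 was picked for display once the matches were known. The AP-1 motif was found in windows of 2 of the 26 genes, LAMA3 and LAMB3. Counted by window, these were 2 of the 33 windows of the 26 genes, against 4.2% of all 35116 windows. Whether 2 of 33 exceeds that share was not tested. The LAMA3 window held it 125 to 119 and 69 to 63 bases before the start, and 1 of the 3 LAMB3 windows held it 67 to 61 bases before the start. Both starts lie inside the GENCODE gene bodies given above, and gene counts do not separate transcripts by start. A match of letters is a description and not a binding site. Capitals mark the AP-1 letters in the LAMA3 and LAMB3 windows, at chr18:23872770-23873019 (plus strand) and chr1:209651375-209651624 (minus strand).
LAMA3: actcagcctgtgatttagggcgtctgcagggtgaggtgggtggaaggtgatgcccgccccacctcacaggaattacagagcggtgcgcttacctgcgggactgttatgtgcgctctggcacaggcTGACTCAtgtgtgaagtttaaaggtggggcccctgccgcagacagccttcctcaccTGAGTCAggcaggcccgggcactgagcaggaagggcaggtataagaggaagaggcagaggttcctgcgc
LAMB3: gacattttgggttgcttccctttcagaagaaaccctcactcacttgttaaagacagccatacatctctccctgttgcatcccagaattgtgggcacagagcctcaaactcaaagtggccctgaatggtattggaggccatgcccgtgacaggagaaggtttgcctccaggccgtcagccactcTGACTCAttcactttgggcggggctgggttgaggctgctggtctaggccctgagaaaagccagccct

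For comparison, the windows of LAMC1, the γ1 chain used by most laminins, and of ITGA2, the integrin α chain with the highest log2 fold change, held no AP-1 letters. They lie at chr1:183023170-183023419 and chr5:52989102-52989351, both on the plus strand, and capitals mark GGGCGG (reverse CCGCCC), the textbook SP1 motif. That motif was present in 17 of the 33 windows, from 14 of the 26 genes, and in 42.6% of all windows. The LAMA3 and LAMB3 windows printed above also held it, where it was left in small letters. Its capitals here therefore do not set LAMC1 and ITGA2 apart from LAMA3 and LAMB3. The LAMC1 and ITGA2 windows had 79.6% and 76.4% G and C, against 60.4% and 54.0% for the LAMA3 and LAMB3 windows above.
LAMC1: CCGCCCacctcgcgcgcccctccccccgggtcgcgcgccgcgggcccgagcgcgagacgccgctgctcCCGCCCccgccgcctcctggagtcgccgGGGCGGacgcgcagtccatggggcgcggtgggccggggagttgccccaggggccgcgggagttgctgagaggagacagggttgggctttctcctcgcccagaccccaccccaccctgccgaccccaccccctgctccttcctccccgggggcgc
ITGA2: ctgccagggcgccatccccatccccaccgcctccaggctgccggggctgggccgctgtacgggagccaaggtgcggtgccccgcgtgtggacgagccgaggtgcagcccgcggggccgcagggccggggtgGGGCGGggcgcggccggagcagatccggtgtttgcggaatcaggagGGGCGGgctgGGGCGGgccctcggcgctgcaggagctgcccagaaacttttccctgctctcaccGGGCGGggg

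LAMC1, LAMB1 and LAMA2 rose as well, and LAMA1 fell. LAMC1 (ENSG00000135862, chromosome 1, 183023460 to 183145592) was at 372, 349 and 352 CPM in siSURF2 replicates 1, 2 and 3, against 226, 221 and 261 CPM in siSCR replicates 1, 2 and 3. The groups did not overlap, and the log2 fold change was 0.60 ± 0.06 (adjusted p = 6.02e-10). LAMB1, the β1 chain of laminin-111 and laminin-511, rose less, with 63.0, 61.5 and 60.8 CPM in siSURF2 libraries and 46.8, 48.2 and 55.8 CPM in siSCR libraries (0.29 ± 0.06, adjusted p = 3.27e-04). LAMA2, the α2 chain of muscle and nerve laminins, was at 9.07, 9.34 and 8.85 CPM with siSURF2, against 5.18, 6.37 and 6.01 CPM with siSCR (0.63 ± 0.13, adjusted p = 1.16e-04). LAMA1 encodes the α1 chain of the early embryonic laminin-111. It was at 57.7, 64.3 and 60.7 CPM in siSURF2 libraries, against 99.7, 100.5 and 90.4 CPM in siSCR libraries, and its log2 fold change was -0.67 ± 0.06 (adjusted p = 1.50e-10).

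LAMA5, LAMB2 and LAMC3 did not pass the threshold. LAMA5, the α5 chain of the widespread laminin-511 and laminin-521, averaged 196 ± 19.3 CPM in siSURF2 and 215 ± 19.7 CPM in siSCR libraries (SD, n = 3 each), a log2 fold change of -0.13 with an approximate 95% interval of -0.27 to 0.01. Its adjusted p was 0.137, and it was 0.0257 without siSURF2 replicate 1. LAMB2, the β2 chain, averaged 87.0 ± 5.40 CPM in siSURF2 and 88.2 ± 10.0 CPM in siSCR libraries, with an interval of -0.15 to 0.11. LAMC3, the γ3 chain, averaged 34.7 ± 3.5 CPM in siSURF2 and 33.3 ± 3.37 CPM in siSCR libraries, with an interval of -0.09 to 0.22. These intervals leave room for small changes in either direction. LAMA5 exons overlap exons of ADRM1 on the other strand by 244 bases (1.71% of the exon length). LAMB1 exons overlap those of DLD by 70 bases (0.86%) and those of an antisense gene with 3 to 11 counts by 221 bases (2.71%), and whether counting used strand is not known from the labels.

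Summed per length, the laminin β chains were higher with siSURF2 and the α chains lower. The 4 β chains together stood at 89.8 ± 3.57 CPM per kb in siSURF2 and 63.5 ± 1.49 CPM per kb in siSCR libraries. The 5 α chains summed to 18.6 ± 1.14 CPM per kb with siSURF2 and 21.7 ± 1.03 CPM per kb with siSCR (SD, n = 3 each). Within the α chains, LAMA5 made up 73.8% ± 2.74 in siSURF2 and 69.1% ± 3.01 in siSCR, with overlapping groups, and LAMA1 20.8% ± 2.32 in siSURF2 and 28.2% ± 2.88 in siSCR, with groups that did not overlap. LAMB3 made up 77.4% ± 1.36 of the β chain level in siSURF2 and 70.1% ± 2.47 in siSCR libraries.

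**Figure D2:**
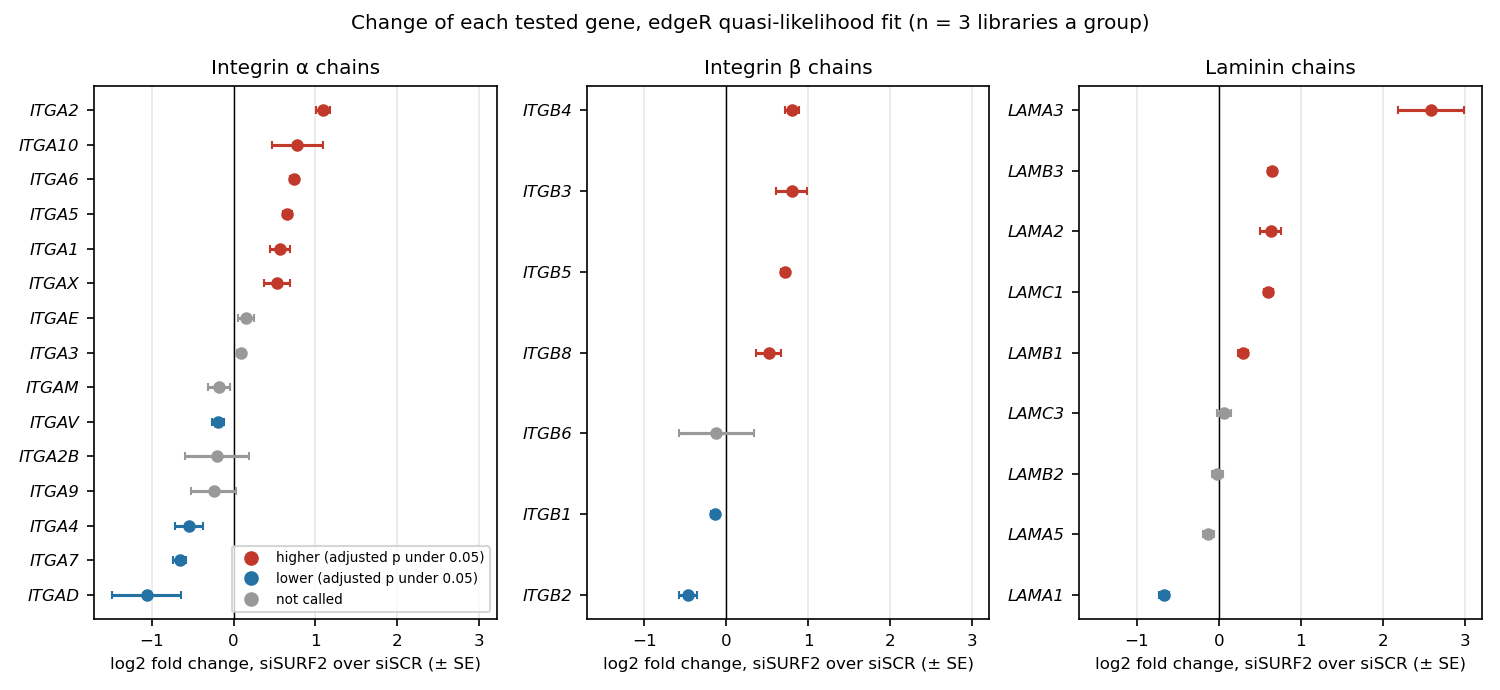
Log2 fold change of siSURF2 over siSCR for tested genes, with standard errors (n = 3 libraries a group), coloured by call at an adjusted p of 0.05. LAMA3 and LAMB3 lie at 2.59 and 0.64, and LAMA1 at -0.67.

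Among the laminin-binding integrins, both chains of α6β4 rose, while the α chains that share β1 went in different directions. ITGA6 (ENSG00000091409, chromosome 2, 172427354 to 172506282, plus strand), which pairs with β1 or β4, was at 164, 178 and 179 CPM in siSURF2 replicates 1, 2 and 3, against 103, 108 and 100.3 CPM in siSCR replicates 1, 2 and 3. ITGB4 (ENSG00000132470, chromosome 17, 75721328 to 75757818, plus strand), the hemidesmosome chain, was at 33.5, 30.3 and 27.1 CPM with siSURF2, against 18.5, 15.5 and 18.1 CPM with siSCR. Neither gene's groups overlapped, and the log2 fold changes were 0.74 ± 0.05 and 0.80 ± 0.09 (adjusted p = 2.19e-12 and 9.43e-09). ITGB4 was the scarcer chain of the pair: ITGA6 exceeded it 5.94-fold per length in siSURF2 and 6.21-fold in siSCR libraries.

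ITGA3, the α3 chain that binds laminin-332 and laminin-511, was the most abundant α chain per length in both groups. Its level was 414, 425 and 408 CPM in siSURF2 libraries, against 390.3, 379 and 404 CPM in siSCR libraries. The groups did not overlap but lay close together, and the log2 fold change of 0.09 ± 0.05 did not pass (adjusted p = 0.116; 0.0107 with upper-quartile factors). ITGA7, the laminin receptor of muscle, fell to 18.8, 18.2 and 18.5 CPM with siSURF2, against 29.3, 28.8 and 29.5 CPM with siSCR (-0.66 ± 0.07, adjusted p = 1.64e-08). Its spread within groups was small next to the gap between them.

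The 3 tested collagen-binding α chains all rose. ITGA2 (ENSG00000164171, chromosome 5, 52989326 to 53094779, plus strand), a receptor for fibrillar collagen on platelets and epithelia, was at 38.4, 42.3 and 47.2 CPM in siSURF2 replicates 1, 2 and 3, against 19.5, 17.8 and 22.6 CPM in siSCR replicates 1, 2 and 3. This was a 2.14-fold higher mean with groups far apart (log2 fold change 1.10 ± 0.09, adjusted p = 8.47e-11). ITGA1, which favours collagen IV, was at 10.4, 10.5 and 9.30 CPM in siSURF2 libraries and 5.89, 6.90 and 7.50 CPM in siSCR libraries (0.57 ± 0.12, adjusted p = 2.80e-04). ITGA10, a collagen receptor of cartilage, had 33, 25 and 50 counts with siSURF2 and 11, 26 and 23 counts with siSCR, and its groups overlapped (0.78 ± 0.31, adjusted p = 0.0336). The ITGA10 call was lost without siSURF2 replicate 1 or 3 or without siSCR replicate 1 or 3, with adjusted p-values of 0.061, 0.23, 0.172 and 0.0534. For ITGA1, 2.56% of the exon length overlaps PELO on the same strand, a gene with 722 to 842 counts, so part of its count is uncertain.

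Among the RGD-binding receptors, ITGA5 and the αV partners ITGB3, ITGB5 and ITGB8 rose, whereas ITGAV and ITGB1 were slightly lower. ITGA5, the α chain of the main fibronectin receptor (ENSG00000161638, chromosome 12, 54395261 to 54419460, minus strand), was at 172, 169 and 158 CPM in siSURF2 libraries, against 99.6, 113 and 104 CPM in siSCR libraries (0.66 ± 0.05, adjusted p = 4.57e-11). ITGB5, a vitronectin-binding chain (ENSG00000082781, chromosome 3, 124761948 to 124901418, minus strand), was at 212, 239 and 220.1 CPM with siSURF2, against 139, 137 and 132 CPM with siSCR (0.72 ± 0.05, adjusted p = 3.32e-12). In both genes all siSURF2 libraries exceeded all siSCR libraries.

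ITGB3, the β3 chain of osteoclasts, endothelium and platelets, was at 10.3, 6.56 and 8.25 CPM in siSURF2 replicates 1, 2 and 3, against 3.33, 4.87 and 6.06 CPM in siSCR replicates 1, 2 and 3 (0.80 ± 0.19, adjusted p = 0.00163). Its gap between groups was narrow, and 51.6% of its exon length is shared with a readthrough gene on the same strand that had 0 counts in each library. ITGB8, an activator of latent TGF-β with αV, was at 10.7, 10.6 and 10.4 CPM with siSURF2, against 6.96, 5.40 and 9.70 CPM with siSCR (0.52 ± 0.15, adjusted p = 0.00551, and 0.0521 without siSCR replicate 2). ITGB6, an epithelial αV partner, had 27 counts summed over siSURF2 and 28 over siSCR libraries, a rate ratio of 0.921 (exact 95% interval 0.522 to 1.62), and did not pass (adjusted p = 0.841).

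ITGB1 (ENSG00000150093, chromosome 10, 32900319 to 33005792, minus strand), the β chain with the most α partners, was the most abundant integrin chain per length. It was at 750.2, 753 and 753 CPM in siSURF2 libraries, against 773, 813 and 895 CPM in siSCR libraries. The groups lay just apart, and the log2 fold change was -0.14 ± 0.05 (adjusted p = 0.0283), which became 0.123 without siSURF2 replicate 1, 0.0611 without siSCR replicate 2 and 0.153 without siSCR replicate 3. ITGAV, the α chain shared by several RGD receptors, was at 242, 238 and 224 CPM with siSURF2, against 238, 256 and 306 CPM with siSCR, with overlapping groups (-0.19 ± 0.07, adjusted p = 0.0419). The ITGAV call was lost without siSCR replicate 3 (adjusted p = 0.162) and also without any one of the siSURF2 libraries, with adjusted p-values of 0.085, 0.0688 and 0.144 for replicates 1, 2 and 3.

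The make-up of the β chains therefore differed between the groups. ITGB1 held 74.2% ± 0.813 of the summed β level per length in siSURF2 and 83.2% ± 1.15 in siSCR libraries. The share of ITGB5 was 20.6% ± 1.05 with siSURF2 and 12.8% ± 1.10 with siSCR, and that of ITGB4 2.66% ± 0.286 with siSURF2 and 1.56% ± 0.172 with siSCR (SD, n = 3 each). None of these 3 shares overlapped between groups, while the summed β level was 169 ± 2.07 CPM per kb in siSURF2 and 165 ± 10.3 CPM per kb in siSCR. The summed α level was 134 ± 1.82 CPM per kb in siSURF2 and 115 ± 5.24 CPM per kb in siSCR libraries. ITGA6 held 19.8% ± 0.976 of it in siSURF2 and 13.9% ± 1.01 in siSCR, and ITGA5 16.4% ± 0.584 in siSURF2 and 12.1% ± 0.844 in siSCR. ITGAV held 21.3% ± 0.714 in siSURF2 and 28.2% ± 2.38 in siSCR libraries, and none of these α shares overlapped either.

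**Figure D3:**
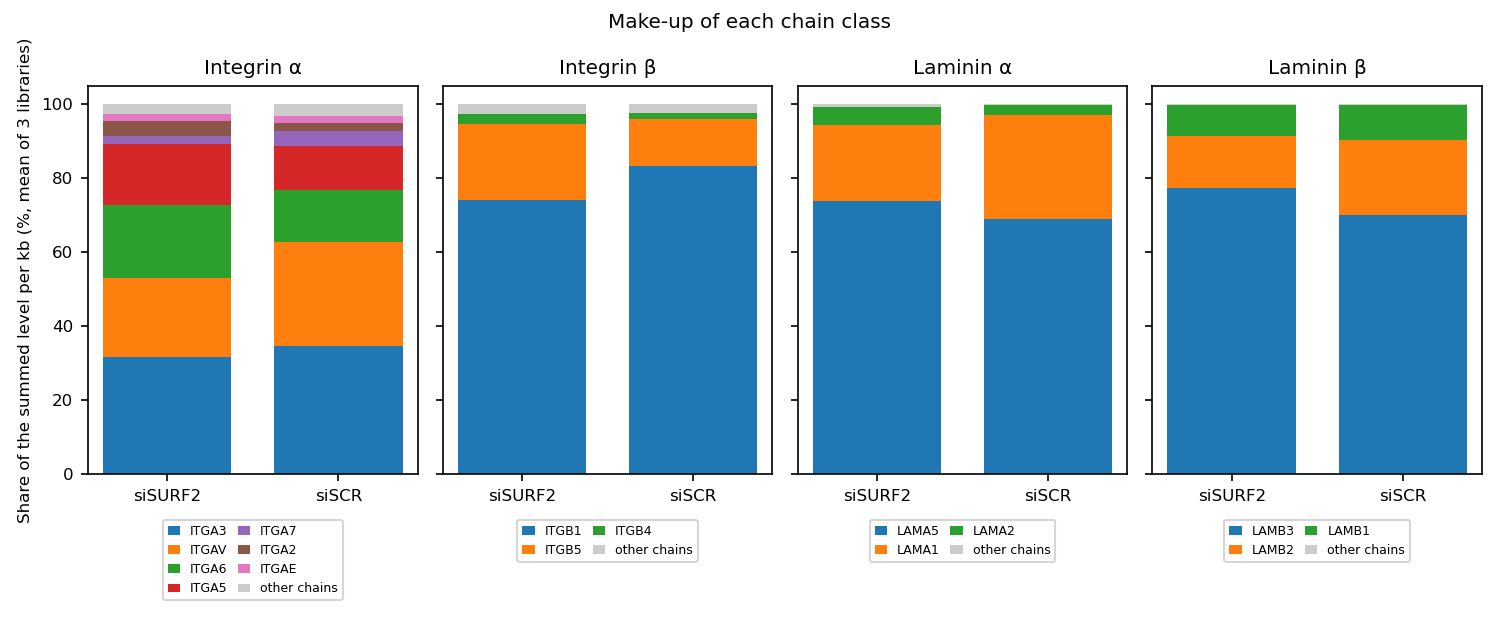
Share of each chain in the summed level per kb of exon of its class, as the mean of 3 libraries, for siSURF2 (left bar) and siSCR (right bar); chains whose shares in both groups add to less than 2.5% are drawn together in grey. The ITGB5 part of the β bar is 20.6% in siSURF2 and 12.8% in siSCR libraries.

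Integrins of leukocytes and platelets were low and moved both ways. ITGB2, the common β chain of leukocyte integrins, was at 10.2, 12.6 and 10.3 CPM in siSURF2 replicates 1, 2 and 3, against 17.1, 13.1 and 15.7 CPM in siSCR replicates 1, 2 and 3 (-0.46 ± 0.11, adjusted p = 8.75e-04). ITGAX, the αX chain of myeloid cells, rose, with 6.32, 5.11 and 6.15 CPM with siSURF2 and 3.33, 4.28 and 4.47 CPM with siSCR (0.53 ± 0.16, adjusted p = 0.0061, and 0.0514 without siSCR replicate 1). Both genes had groups that did not overlap.

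ITGA4, the α4 chain that binds VCAM1 and fibronectin, fell to 3.52, 3.77 and 2.60 CPM in siSURF2 libraries, against 4.76, 5.13 and 4.47 CPM in siSCR libraries (-0.54 ± 0.17, adjusted p = 0.0102, but 0.081 without siSURF2 replicate 3 and 0.0552 without siSCR replicate 2). ITGAD, another β2 partner, had 22 counts summed over siSURF2 and 44 over siSCR libraries (-1.06 ± 0.42, adjusted p = 0.0349), and its call was lost without siSURF2 replicate 1 or 3 or siSCR replicate 1 or 3, with adjusted p-values of 0.139, 0.0943, 0.142 and 0.0639. ITGAD entered the test through its siSCR libraries, with 17, 12 and 15 counts, against 5, 10 and 7 with siSURF2. Its call was also lost when the low-count filter was left out (adjusted p = 0.0848). The myeloid αM chain ITGAM (-0.18), the αE chain ITGAE (0.15), the α9 chain ITGA9 (-0.24) and the platelet αIIb chain ITGA2B (-0.21) did not pass, with adjusted p-values of 0.282, 0.204, 0.489 and 0.685. ITGA9 shares 6.46% of its exons with an antisense gene of 66 to 121 counts, more than its own 21 to 36 counts, and ITGAE shares 6.41% with HASPIN on the other strand. ITGB2 shares 4.46% with an antisense gene of 28 to 59 counts. The level of ITGB2 stood against a nearly absent leukocyte and platelet marker list: 2 of 17 markers passed the filter, 7 were at 0 in all libraries, and the list summed to 2.55 to 3.25 CPM in siSURF2 and 2.82 to 3.48 CPM in siSCR libraries. PTPRC, which encodes the leukocyte protein CD45, had 2 to 8 counts in a library, and GP1BA, a platelet receptor gene and 1 of the 2 tested markers, had a log2 fold change of -0.15 (adjusted p = 0.697).

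Partner chains were compared by their log2 ratio per length in each library, for the 33 ratios in which both chains passed the filter (19 of 24 integrin pairs, and 14 laminin α or β chains over a γ chain). With 3 libraries against 3, the exact two-sided permutation test cannot go below 0.10, and the lowest p adjusted over the 33 ratios was 0.15, so no ratio could pass a threshold of 0.05. Relative to ITGB1, the chains ITGA2, ITGA10, ITGA6, ITGA5, ITGA1 and ITGA3 were higher with siSURF2. The log2 differences were 1.23, 0.95, 0.87, 0.79, 0.72 and 0.22 in that order, and ITGA7 was lower (-0.53). None of these ratios to ITGB1 overlapped between groups (exact p = 0.10 each). For ITGA10 the groups barely separated, with log2 ratios of -9.261 in siSURF2 replicate 2 and -9.263 in siSCR replicate 2.

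The order of the αVβ5 chains differed between the groups. Per length ITGAV was 0.824 times ITGB5 in siSURF2 libraries and 1.53 times ITGB5 in siSCR libraries, a log2 difference of -0.90 (exact p = 0.10), so the scarcer chain was ITGAV with siSURF2 and ITGB5 with siSCR. With the longest transcript as the length the ratio was 0.653 in siSURF2 and 1.21 in siSCR libraries. ITGAV over ITGB3 and over ITGB8 was lower with siSURF2 as well, by log2 differences of -1.01 and -0.74 (exact p = 0.10 each), whereas ITGAV over ITGB1 and ITGA6 over ITGB4 had overlapping groups, with differences of -0.04 and -0.07 (exact p = 0.60 and 0.70). For laminins, LAMA1 over LAMC1 was lower with siSURF2 by a log2 difference of -1.27 and LAMA5 over LAMC1 by -0.73, while LAMA3 over LAMC1 was higher by 2.06 (exact p = 0.10 each). A trimer needs all its chains, and the scarcest mRNA of laminin-511 per length was LAMB1 in every library, at 7.58 ± 0.138 CPM per kb in siSURF2 and 6.18 ± 0.593 CPM per kb in siSCR. For laminin-521 it was LAMB2, at 12.7 ± 0.786 CPM per kb in siSURF2 and 12.9 ± 1.46 CPM per kb in siSCR, with overlapping groups. For laminin-111 it was LAMA1 in all 3 siSURF2 libraries, at 3.84 ± 0.208 CPM per kb, and LAMB1 or LAMA1 in siSCR libraries, at 5.79 ± 0.120 CPM per kb.

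**Figure D4:**
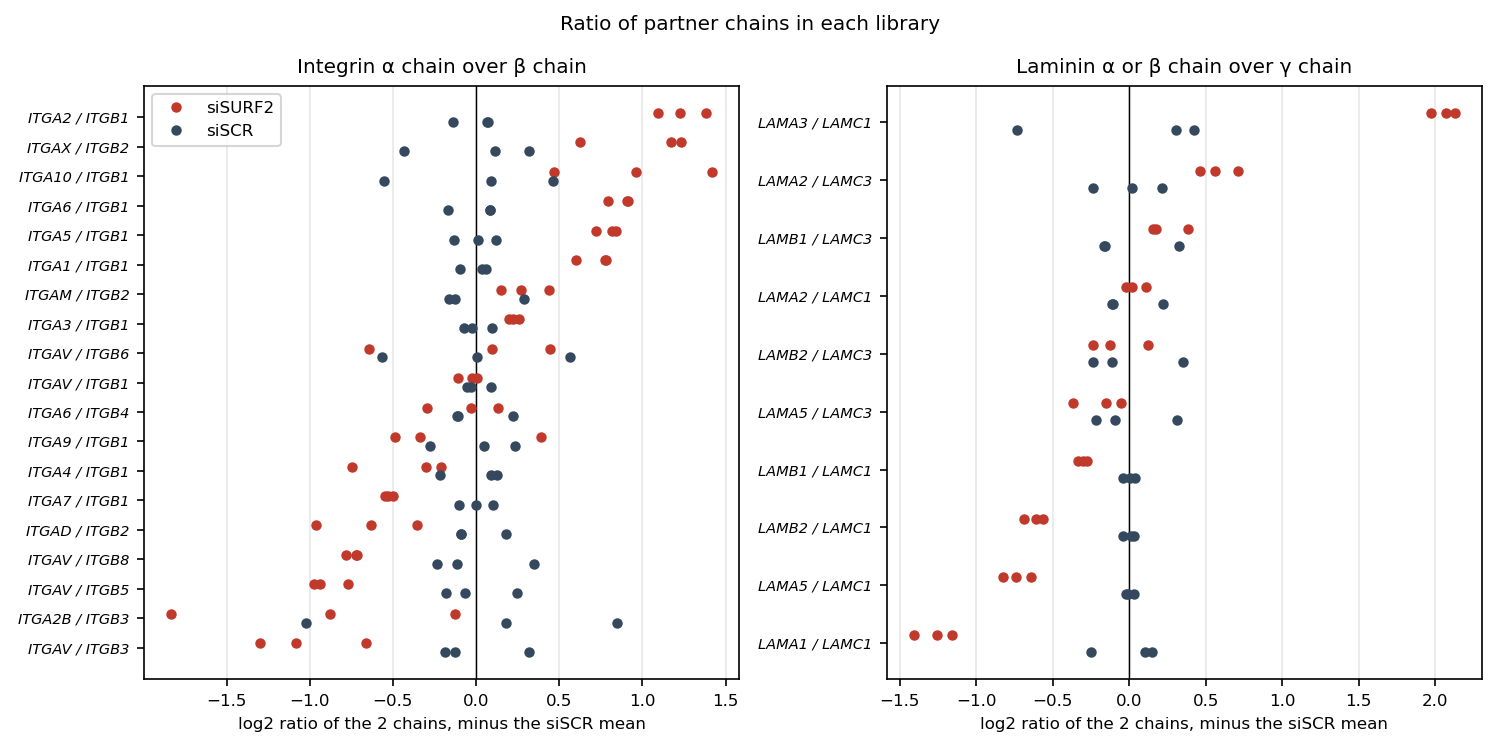
Log2 ratio of partner chains per length in each library, minus the siSCR mean of that ratio, for 19 integrin pairs and for laminin α or β chains over LAMC1 or LAMC3, siSURF2 above siSCR. The ITGA6 / ITGB4 points of both groups lie together, while LAMA1 / LAMC1 lies to the left with siSURF2 and LAMA3 / LAMC1 to the right.

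The genes listed as adaptors of the integrin tail, which are not all actin linkers, did not follow one direction. Of 49 genes on that list 47 were tested, 12 rose, 18 fell and 17 did not pass, with a median log2 fold change of -0.07 against 0.00 for all genes. Parvin-α (PARVA), which links integrin-linked kinase to actin, fell to a mean of 54.7 CPM with siSURF2, against 117 CPM with siSCR (-1.09 ± 0.06, adjusted p = 4.93e-15). ACTN1, an actin cross-linker, fell by 0.93 ± 0.05 (adjusted p = 1.20e-14). Talin 2 (TLN2) rose by 0.60 ± 0.06 and RASSF5, a RAP1 effector, by 0.75 ± 0.08 (adjusted p = 3.81e-09 and 6.38e-09). Of 6 hemidesmosome genes 5 were tested. PLEC, the plectin that binds the β4 tail, rose to 1556 ± 52.7 CPM, against 1064 ± 44.9 CPM with siSCR (0.55 ± 0.05, adjusted p = 2.40e-10), as did COL17A1 (0.32 ± 0.10), while DST fell (-0.24 ± 0.06).

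Epithelial markers, of interest because laminin-332 and α6β4 are typical of epithelia, went both ways. Of 12 markers 7 were tested, 2 rose and 4 fell. EPCAM and CLDN4 rose by 0.99 ± 0.13 and 1.07 ± 0.08, and KRT18 and KRT8, keratin genes with many pseudogenes, fell by 0.69 ± 0.05 and 0.50 ± 0.05. CDH1 fell by 2.70 ± 0.31, to a mean of 0.48 CPM with siSURF2 against 3.19 CPM with siSCR (adjusted p = 1.99e-08). OCLN fell by 0.29 ± 0.08 (adjusted p = 0.00379). The list summed to 1054 to 1131 CPM in siSURF2 and 1503 to 1632 CPM in siSCR libraries, and KRT14, a basal keratin, had at most 6 counts in a library. The part of these cell identity genes in the laminin and integrin changes was not tested.

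Other basement membrane and ligand genes were counted in the same way. Among all genes tested 52.0% were called, 25.8% higher and 26.2% lower, so the call counts of every gene list here are descriptions. Whether any list exceeded those shares was not tested. Of 26 basement membrane genes 20 were tested, 11 rose and 4 fell (median 0.28), with HMCN1, a hemicentin, rising by 2.27 ± 0.16, AGRN, agrin, by 0.57 ± 0.05, and COL4A1, a collagen IV chain, and TINAGL1 falling by 0.78 ± 0.07 and 0.66 ± 0.06. The tested collagen IV chains did not share a direction: COL4A2 rose by 0.28 ± 0.05 and COL4A5 by 0.73 ± 0.10, while COL4A4 fell by 1.23 ± 0.26. Of 44 integrin ligands 29 were tested, 13 rose and 10 fell (median 0.36), and the 2 with the smallest adjusted p in each direction were the tenascin TNC (2.09 ± 0.06) and CCN3 (1.88 ± 0.08), which rose, and CCN1 (-1.23 ± 0.05) and CCN2 (-0.93 ± 0.07), which fell. Among 19 tetraspanins and other lateral partners of integrins 18 were tested, 8 rose and 1 fell (median 0.13). CD47, a partner of β3 integrins, rose by 0.80 ± 0.06 and PTGFRN by 0.70 ± 0.06, and TSPAN14 fell by 0.71 ± 0.06. Among 14 laminin receptors that are not integrins 11 were tested, 2 rose and 4 fell (median 0.01). MCAM, which binds laminin α4 chains, was at 110.3 ± 7.91 CPM in siSURF2 and 299 ± 12.3 CPM in siSCR libraries (-1.44 ± 0.05, adjusted p = 3.21e-18), SDC4 fell by 0.54 ± 0.05, and SDC3 and RPSA rose by 0.68 ± 0.06 and 0.20 ± 0.05, RPSA being a ribosomal protein gene with many pseudogenes. Of 8 endothelial markers 4 were tested and 3 fell, among them TEK (-2.15 ± 0.33) and PECAM1 (-1.34 ± 0.31), with list sums of 4.59 to 5.88 CPM in siSURF2 and 8.69 to 9.50 CPM in siSCR libraries. Of 13 osteoblast lineage genes 7 were tested, 3 rose and 1 fell, with PRRX1 and COL1A1 rising by 1.17 ± 0.14 and 0.43 ± 0.06 and ALPL, bone alkaline phosphatase, falling by 2.07 ± 0.25.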

How the data were processed

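RNA was measured by polyA sequencing in 6 U2OS libraries. The file deposited by the authors holds unnormalised read counts for each gene and library. The submitters' processing notes name GRCh38, fastp 0.23.1 and STAR 2.5.2b; the sources used here do not give the counting tool, its annotation or its strand setting. Columns were matched to samples by name. Gene symbols were taken from an ID table, and gene types, coordinates and exon lengths from GENCODE release 29 (GRCh38).

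The 92 spike-in entries entered neither library sizes nor tests. R 4.3.3 and edgeR 4.0.16 were used: low genes were removed by filterByExpr (at least 10 counts, total at least 15), libraries were scaled by TMM, and the robust quasi-likelihood test was run with a term for group. Benjamini-Hochberg adjustment covered 17561 genes, with a threshold of 0.05. The common biological coefficient of variation was 5.12%. CPM values are TMM-normalised; per-length levels divide by the union of exons. Fold changes include edgeR's prior count. The members are named, except 1 that is not reported here; of each list up to 2 genes per direction with the smallest adjusted p are named, or 1 where none passed, except that RUNX2, SP7, TWIST1, IBSP, PTPRC and KRT14 were named after their values were seen. The members and lists were chosen with earlier results of these data known. The test was checked on simulated data. Alternatives included DESeq2 1.42.0 and limma 3.58.1 (voom).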

Additional observations from a re-analysis of the deposited data

How the results depend on the processing

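The count of members called higher stayed within 14 to 17 and that called lower within 4 to 7 in each alternative run, against 16 and 7 in the fit reported, except with library sizes from ERCC totals, where they were 3 and 0. Leaving out 1 library gave 14 to 16 higher and 4 to 6 lower. ERCC totals vary between libraries of a group (1.27% to 1.72% of counts in siSURF2, 1.12% to 1.72% in siSCR), and the cause of the lost calls was not tested. LAMA3 and ITGA2 passed in all 16 alternatives, which include a run without the low-count filter. Members that changed sign were not called in any such setting: LAMB2 was at 0.0252 with upper-quartile factors and at 0.00419 without factors, and on leaving out 1 library log2 fold changes ran from -0.51 to 0.42 for ITGA2B, -0.44 to 0.0780 for ITGB6, -0.0784 to 0.0665 for LAMB2 and -0.0298 to 0.15 for LAMC3. The chain ratio differences that changed sign on leaving out 1 library ran from -0.17 to 0.0498 for ITGA6 over ITGB4, -0.0721 to 0.000755 for ITGAV over ITGB1, -0.32 to 0.27 for ITGAV over ITGB6, -0.41 to 0.0248 for ITGA9 over ITGB1, -0.0210 to 0.14 for LAMA2 over LAMC1 and -0.20 to 0.0969 for LAMB2 over LAMC3. The calls of ITGAV (adjusted p = 0.189 with DESeq2, 0.107 without factors, 0.151 with upper-quartile factors), ITGB1 (0.0646 and 0.123 without factors and with upper-quartile factors), ITGA10 (0.0791 with DESeq2) and ITGAD (0.107 with DESeq2) were the least stable. Replicate numbers did not pair the libraries: the correlations of same-numbered deviations were 0.00, -0.09 and -0.04. With the replicate number as a block, 16 members were higher and 6 lower, ITGAV at an adjusted p of 0.0831, ITGAD at 0.0501 and LAMA5 at 0.0477. Depth limits LAMA3, ITGAD, ITGB6 and the 6 genes not tested, which rest on few counts.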

Other observations

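Members that lie next to each other in the genome did not all move together. ITGA1 and ITGA2, 30115 bases apart on chromosome 5 with no protein-coding gene between them, had log2 fold changes of 0.57 and 1.10. Of the 3 leukocyte α chain genes in a row on chromosome 16, ITGAX had 0.53, between ITGAM at -0.18, which did not pass the threshold, and ITGAD at -1.06, with gaps of 22241 and 10314 bases. LAMB4, 20292 bases from LAMB1 on chromosome 7, had at most 2 counts in a library.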
